A study of Mus musculus with 3 samples.

Results

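The 9 genes described here, Spi1, Cebpa, Cebpb, Cebpd, Maf, Runx1, Klf4, Tfec and Bhlhe40, encode transcription factors that set up or maintain the macrophage lineage. They were chosen by name, as 9 of the 55536 gene entries in each table. RNA levels were measured in 3 libraries of polyadenylated RNA from macrophages derived in culture from C57BL/6J mouse bone marrow. All 3 received 1 agent at 100 ng/mL for 480 minutes. Its identity is not settled by the labels: the descriptions name lipid A, a Toll-like receptor 4 ligand that forms the lipid anchor of bacterial lipopolysaccharide, and the treatment fields name lipoprotein A. Sex and age were not collected, and all 3 biosamples point to the same donor record. The labels name no allele or transgene, and no untreated culture was analysed here, so every value below is a level after stimulation. Nothing in the labels says that the libraries, here replicates 1, 2 and 3, came from separate animals, so tests between them measure a spread that may be technical.

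Macrophage identity rests on PU.1, the ETS-family protein encoded by Spi1, which opens chromatin at myeloid enhancers and binds there beside C/EBP and RUNX factors. C/EBPα drives the step from progenitor to granulocyte and monocyte precursors, while C/EBPβ and C/EBPδ serve mature myeloid cells and the acute response to bacterial products. MAF, TFEC and BHLHE40 act later, in differentiated macrophages, on self-renewal, polarisation and cytokine output, and KLF4 acts in monocyte differentiation and alternative polarisation.

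Depth differed between libraries: expected counts summed over genes to 26589042 in replicate 1, 34344922 in replicate 2 and 48356527 in replicate 3. The macrophage label was matched by its markers, with 10 of 10 macrophage markers detected, meaning at least 1 TPM (transcript abundance scaled by length to the same total in each library) in all 3 libraries, among them Lyz2 at 12916 ± 2539 TPM (SD, n = 3). Replicate 2 stood apart in markers of other cells. Its 12 neutrophil markers summed to 482 TPM, against 126 TPM in replicate 1 and 91.5 TPM in replicate 3. Of the 12, 11 were highest in replicate 2, though Cxcr2 tied with replicate 3 at 0.03 TPM. Of all 20476 genes with counts, 9930 were detected and 8248 were highest in replicate 2. Among 12 housekeeping genes, 8 were highest there. The granule genes S100a9 at 237 TPM, S100a8 at 128 TPM and Ngp at 43.3 TPM led the neutrophil markers of replicate 2. Lcn2 went the other way, at 97.7, 53.7 and 66.2 TPM in replicates 1, 2 and 3. It made up most of the neutrophil sum in replicates 1 and 3. The neutrophil genes Elane, Mpo and Retnlg were listed at 0 in replicates 1 and 3 and had 6, 28 and 1 counts in replicate 2. Markers of osteoclasts summed to 108, 305 and 165 TPM, those of monocytes to 96.0, 125 and 69.5 TPM, those of dendritic cells to 5.81, 23.6 and 10.05 TPM, and those of lymphoid and erythroid cells and platelets to 1.64, 12.3 and 1.64 TPM in replicates 1, 2 and 3. Of the 6 osteoclast markers, 3 were detected. In the same order Acp5 had 79.6, 209 and 103 TPM and Atp6v0d2 26.7, 92.7 and 58.6 TPM, nearly all of the osteoclast sum. Ctsk was highest in replicate 3, at 1.52, 2.87 and 3.61 TPM. Stromal, endothelial and epithelial markers summed to 6.44, 5.70 and 6.01 TPM.

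All 9 factors were detected, as were 9930 of the 20476 genes with counts. Levels of the factors ran between the 97.2 percentile of detected genes for Spi1 and the 5.8 percentile for Cebpa. By mean TPM the order was Spi1, Maf, Cebpb, Tfec, Cebpd, Runx1, Klf4, Bhlhe40 and Cebpa. A pair of genes was called apart when the log2(TPM + 0.1) difference within a library had the same sign in 3 of 3 libraries and its mean exceeded 2 SD, a rule without a p, since a two-sided sign-flip test over 3 libraries cannot go below 0.25. By that rule Spi1 lay above Maf, Maf above Cebpb and Cebpb above Tfec. Tfec, Cebpd and Runx1 were not apart from each other, each of the 3 lay above Klf4, and Klf4, Bhlhe40 and Cebpa were again not apart. Cebpd was also not apart from Bhlhe40, at a log2 difference of 2.58 ± 1.69. Of the 36 pairs of factors, 29 were apart. The rule was not run over pairs drawn from all genes, so this count has no background to be read against. The median of the 9 mean levels was 14.8 TPM, beside 13.96 TPM over all 9930 detected genes.

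**Figure D1:**
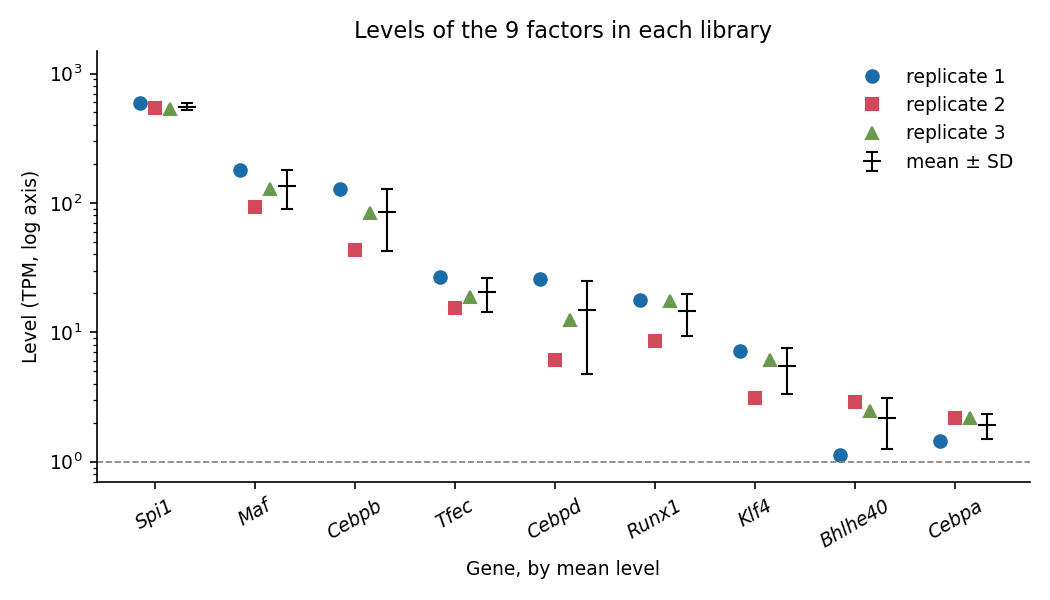
Level of each factor in TPM (log axis) in replicates 1, 2 and 3, with mean ± SD (n = 3) in black beside the points and the detection level of 1 TPM as a dashed line. Spi1 lies between 529.9 and 592 TPM in all 3 libraries, and Cebpd spreads most, with 25.8 TPM in replicate 1 and 6.16 TPM in replicate 2.

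Spi1 (ENSMUSG00000002111.8, chr2:91082390-91115756 on the plus strand, mm10) was the most abundant of the 9 and the steadiest by TPM. It had 592, 544 and 529.9 TPM in replicates 1, 2 and 3, a mean of 555 ± 32.4 TPM (SD, n = 3). The 3 libraries lay within 1.12-fold of each other. Spi1 exceeded Maf, the next factor, by 2.10 ± 0.42 on the log2 scale, and Cebpa, the lowest, by 8.12 ± 0.40, so that for each unit of Cebpa TPM there were 411, 251 and 244 of Spi1. Irf8, which encodes a DNA-binding partner of PU.1, had 155 ± 17.7 TPM, and the Spi1 level was 4.14, 3.11 and 3.63 times as high.

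Among 10 ETS-family genes, Spi1 held 66.6 ± 1.34% of the summed TPM. The repressor gene Etv3 followed at 101.3 ± 8.35 TPM, then Elf4, Etv6, Elf1 and Ets2 between 46.3 and 24.2 TPM. The close relative Spib was not detected, with 0.753 ± 0.541 TPM. Spic, which encodes the PU.1 relative of red pulp and iron-recycling macrophages, had 29.4, 23.5 and 9.48 TPM and was lowest in replicate 3. Spi1 was apart from each of the 9 relatives, the nearest being Etv3, at a log2 difference of 2.45 ± 0.15.

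The 4 annotated Spi1 transcripts fall into 2 start regions, 13706 bases apart. Spi1-201, the full-length form with 816 coding bases, starts downstream and held 65.7, 56.0 and 58.4% of the gene's TPM. The fragment Spi1-203 starts close to it and held 7.6, 15.8 and 16.0%. The short models Spi1-204 and Spi1-202, of 544 and 613 bases, start upstream and together held 26.7, 28.2 and 25.6% of TPM. In counts they held far less, 6.74% (95% Wilson interval 6.32 to 7.18), 7.25% (6.83 to 7.69) and 6.72% (6.37 to 7.08), because TPM divides by length and short models gain weight. These intervals, like the others below, cover counting error only. The second quantification, made from the same reads without an alignment file, gave the upstream start 38.5, 35.5 and 32.3% of TPM, above the alignment-based share in every library.

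The 3 C/EBP factors lay far apart in level, and Cebpb was highest. Cebpb (ENSMUSG00000056501.3, chr2:167688915-167690418, plus strand) had 128 TPM in replicate 1, 43.0 TPM in replicate 2 and 83.9 TPM in replicate 3, a mean of 85.0 ± 42.5 TPM (SD, n = 3). Cebpd (ENSMUSG00000071637.5, chr16:15887286-15891031, plus strand) had 25.8, 6.16 and 12.5 TPM in the same order, 14.8 ± 10.04 TPM. Both genes were highest in replicate 1 and lowest in replicate 2, by 2.98-fold for Cebpb and 4.19-fold for Cebpd. Cebpd was the more variable in TPM, with a coefficient of variation of 67.7% against 50.1% for Cebpb, yet Cebpb stayed above Cebpd in every library, by 2.61 ± 0.26 on the log2 scale.

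Cebpa (ENSMUSG00000034957.10, chr7:35119293-35121928, plus strand) stood at the other end, with 1.44, 2.17 and 2.17 TPM in replicates 1, 2 and 3. Its mean of 1.93 ± 0.421 TPM rested on 59, 107 and 150 counts. In contrast to Cebpb and Cebpd, Cebpa was lowest in replicate 1. Its libraries did not pass the chi-square test below for more than counting error (adjusted p = 0.141). The ratio of Cebpb to Cebpa was therefore widest in replicate 1, at 88.9, against 19.8 in replicate 2 and 38.6 in replicate 3. Cebpa was not apart from Cebpg, which encodes a dimer partner without an activation domain and had 4.75 ± 1.14 TPM.

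Over the 6 C/EBP genes, Cebpb held 45.2 ± 8.16% of summed TPM, Cebpd 7.60 ± 2.89% and Cebpa 1.22 ± 0.654%. Ddit3, which encodes the stress-induced family member CHOP, held 43.2 ± 9.998% and was not apart from Cebpb. Cebpb was above Ddit3 in replicate 1, by 0.75 on the log2 scale, and below it in replicates 2 and 3, at -0.45 and -0.07. Cebpe, the granulocyte member, was not detected, with 4, 8 and 5 counts.

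Promoter sequence was available for 5 of the 9 factors, from RefSeq annotation on GRCm38.p6, the same assembly as mm10. The windows of Cebpa and Cebpb are shown because these relatives lay far apart in level. In addition, replicate 1 was the highest library of Cebpb and, within counting error, the lowest of Cebpa. Each is the 250 bases before the start, chr7:35119043-35119292 for Cebpa and chr2:167688665-167688914 for Cebpb, 5′ to 3′ on the plus strand, with capitals marking motif letters.
Cebpa: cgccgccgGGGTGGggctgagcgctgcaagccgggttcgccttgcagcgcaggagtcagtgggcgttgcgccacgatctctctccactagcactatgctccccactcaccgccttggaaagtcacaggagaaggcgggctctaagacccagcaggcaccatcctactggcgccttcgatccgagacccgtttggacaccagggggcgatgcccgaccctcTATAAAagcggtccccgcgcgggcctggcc
Cebpb: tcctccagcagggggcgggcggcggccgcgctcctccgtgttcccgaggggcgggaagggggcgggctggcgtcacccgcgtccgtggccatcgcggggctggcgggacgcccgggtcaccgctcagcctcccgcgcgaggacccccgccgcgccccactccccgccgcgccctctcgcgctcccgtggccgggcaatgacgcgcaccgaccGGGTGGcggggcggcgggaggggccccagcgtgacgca
Both strands were searched for GAGGAA, a core of ETS sites, for TGTGGT, the core of RUNX sites, and for TTGCNNAA, the C/EBP site. The search also took in CACGTG, the E-box read by TFEC relatives and BHLHE40, and CCACCC, a core of KLF sites. The remaining letters were TGCTGA, part of the MAF site, and TATAAA for the TATA box. The Cebpa window holds TATAAA 30 bases before its end, a motif found in 12.4% of 32851 promoter windows of this length. Each window also holds 1 copy of GGGTGG, the KLF letters on the opposite strand, which 28.1% of all windows have on either strand. None of the other letters occur in these windows, and no motif overlaps another. The Cebpb window is 81.6% G or C and the Cebpa window 66.4%, beside a median of 52.4% over all windows.

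Annotated transcripts added little for Cebpb and Cebpd, where 1 form carried all counts. Cebpa was the exception among the 9 factors, as by alignment-based TPM the form with the larger share was Cebpa-202 in replicate 2, at 52.8%, and Cebpa-201 in replicates 1 and 3. By counts, and in the second quantification, Cebpa-201 led in every library. Cebpa-202 is a 2-exon model with 477 coding bases, where the intronless Cebpa-201 has 1077. The short form had 0 of 59 counts in replicate 1, which allows a share of up to 6.11% by the 95% Wilson interval. It had 47.7% of 107 counts in replicate 2 (95% Wilson interval 38.4 to 57.04) and 34.0% of 150 counts in replicate 3 (26.9 to 41.9). The second quantification also gave it nothing in replicate 1, and 38.1 and 18.4% of TPM in replicates 2 and 3, so both methods left the short form out of replicate 1 and differed by up to 20.7 percentage points elsewhere.

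Runx1 (ENSMUSG00000022952.17, chr16:92601466-92826149, minus strand), the DNA-binding subunit of core-binding factor, had 17.8, 8.55 and 17.3 TPM. Replicates 1 and 3 were close together and replicate 2 was lowest, for a mean of 14.6 ± 5.20 TPM (SD, n = 3) at the 51.1 percentile of detected genes. Runx1 was nearly the only RUNX gene in these cells, with 94.0 ± 2.75% of the family's summed TPM. Runx2, known for bone, and Runx3, known for lymphocytes, were not detected, at 0.510 ± 0.329 and 0.333 ± 0.121 TPM. Cbfb, the partner subunit, had 35.9 ± 3.74 TPM, and Runx1 was at 0.537, 0.213 and 0.505 of that level in replicates 1, 2 and 3. The corepressor genes Cbfa2t3 and Runx1t1 were not detected.

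Runx1 is made from a distal promoter, P1, and a proximal promoter, P2, which give proteins with different N-termini. Their windows are shown because transcripts from both starts were found. They lie at chr16:92826150-92826324 for P1, cut to 175 bases so as to hold no annotated exon, and at chr16:92697330-92697579 for P2, both 5′ to 3′ on the minus strand, with the 1 motif match in capitals.
Runx1 P1: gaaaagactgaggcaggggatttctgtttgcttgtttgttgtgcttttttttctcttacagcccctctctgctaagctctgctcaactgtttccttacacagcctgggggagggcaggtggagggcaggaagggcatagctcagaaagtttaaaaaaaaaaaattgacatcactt
Runx1 P2: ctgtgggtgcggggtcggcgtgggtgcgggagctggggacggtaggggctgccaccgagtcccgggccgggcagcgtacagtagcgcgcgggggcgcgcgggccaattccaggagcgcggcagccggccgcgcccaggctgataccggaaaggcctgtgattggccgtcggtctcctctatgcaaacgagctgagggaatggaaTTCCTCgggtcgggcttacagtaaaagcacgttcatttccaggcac
The P2 window holds TTCCTC, the ETS letters GAGGAA on the opposite strand, 46 bases before its end. GAGGAA occurs on either strand in 23.3% of all windows of 250 bases. The P1 window holds none of the letters searched. P2 is 67.6% G or C and P1 45.1%.

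Transcripts that start at P1, led by Runx1-201 with 1395 coding bases, held 49.5, 62.0 and 67.0% of Runx1 TPM in replicates 1, 2 and 3, a mean of 59.5 ± 8.99% (SD, n = 3). Transcripts from P2 and the starts close to it, led by Runx1-202 with 1161 coding bases and Runx1-203 with 1353, held the remaining 50.5, 38.0 and 33.0%. In counts the P1 share was 59.9% (95% Wilson interval 57.2 to 62.5), 65.7% (62.6 to 68.6) and 72.3% (70.4 to 74.0), so replicates 1 and 3 differed by more than counting error. The second quantification gave 45.9, 55.8 and 63.7% of TPM. In each of the 3 measures replicate 1 had the lowest P1 share and replicate 3 the highest, while the gene's total level was lowest in replicate 2. A 336-base P1 model gave 3.9, 6.6 and 9.4% of alignment-based TPM from 1, 1 and 4 counts. Runx1-201 alone held 43.8, 54.8 and 54.5%, so by alignment-based TPM it was not higher in replicate 3 than in replicate 2. In the second quantification it held 36.4, 45.9 and 48.4%. Runx1-203 varied most, with 20.2, 3.0 and 9.8% of TPM from 108, 10 and 92 counts.

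**Figure D2:**
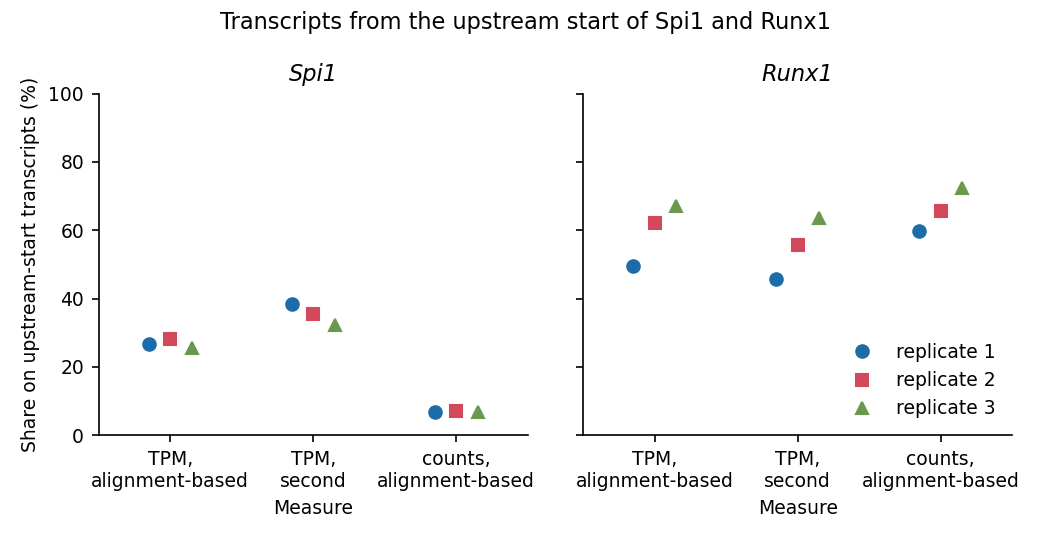
Share (%) of each gene's transcripts assigned to the upstream start in replicates 1, 2 and 3, as alignment-based TPM, as TPM of the second quantification and as alignment-based counts. For Spi1 the share is between 25.6 and 28.2% of TPM and between 6.72 and 7.25% of counts, and for Runx1 replicate 1 is lowest and replicate 3 highest in every measure.

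Maf (ENSMUSG00000055435.6, chr8:115682942-115707794, minus strand), which encodes the large MAF protein c-MAF, an activator of the anti-inflammatory cytokine gene Il10 in macrophages, followed Spi1 in level. It had 181, 93.6 and 129 TPM, a mean of 134 ± 43.9 TPM (SD, n = 3) at the 89.3 percentile of detected genes. Replicate 1 was highest and replicate 2 lowest, 1.93-fold apart. Maf lay above Cebpb in every library, by 0.75 ± 0.33 on the log2 scale. Among the small MAF genes, which lack an activation domain, Mafk was highest at 35.6 ± 7.55 TPM, and Maf lay above it by 1.89 ± 0.47 on the log2 scale. Mafg followed at 11.8 ± 2.05 TPM and Maff at 3.15 ± 1.35 TPM. Nrl, the photoreceptor member, had no counts, which allows up to 0.0990 TPM, the level that 3 counts would give.

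Most Maf RNA was assigned to Maf-202, a 1-exon form of 6360 bases, with 84.6, 78.4 and 80.8% of TPM. The spliced Maf-201 held 15.4, 21.6 and 19.2%. Replicate 2 had the largest spliced share in the second quantification too, at 19.2%, against 14.4% in replicate 1 and 16.8% in replicate 3.

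Klf4 (ENSMUSG00000003032.8, chr4:55527143-55532466, minus strand), a zinc-finger factor of monocyte differentiation and alternative polarisation, had 7.11 TPM in replicate 1, 3.11 TPM in replicate 2 and 6.13 TPM in replicate 3. Its mean of 5.45 ± 2.08 TPM (SD, n = 3) was at the 26.6 percentile, and replicate 2 was the low library. Klf4 made up 1.38 ± 0.469% of the summed TPM of 8 KLF genes. Klf6, which encodes a driver of inflammatory macrophage activation, held 80.9 ± 1.55% with 315 ± 20.6 TPM, and exceeded Klf4 47.7, 98.1 and 49.2 times in replicates 1, 2 and 3. Klf4 was not apart from Klf2 at 3.89 ± 0.912 TPM, a KLF gene that restrains inflammatory activation, nor from Klf7 or Klf10. The 250-base window before its start holds CACGTG, the E-box letters found in 6.02% of windows.

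Tfec (ENSMUSG00000029553.10, chr6:16833373-16898441, minus strand), the macrophage-restricted member of the MiT/TFE family, had 26.8, 15.3 and 18.8 TPM, a mean of 20.3 ± 5.90 TPM (SD, n = 3). It was highest in replicate 1 and lowest in replicate 2. Tfec was not the main gene of its family, with 15.5 ± 3.24% of the summed TPM of 4 genes. Tfe3 held 50.6 ± 4.91% and Mitf 26.1 ± 2.27%, both above Tfec in every library, while Tfeb, a regulator of lysosome genes, had 10.1 ± 1.26 TPM and lay below Tfec. Nearly all Tfec RNA was the full-length Tfec-201, with 95.0, 98.4 and 87.2% of TPM. Its promoter window had 39.2% G or C, the lowest of the windows matched, and holds ACCACA, the RUNX letters on the opposite strand, which 14.0% of windows have on either strand.

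Bhlhe40 (ENSMUSG00000030103.11, chr6:108660629-108666925, plus strand), a repressor that holds down Il10 in activated myeloid and T cells, had 1.13, 2.90 and 2.47 TPM from 56, 193 and 223 counts. Replicate 1 was lowest and replicate 2 highest, the reverse of Maf, Cebpb, Cebpd, Runx1, Klf4 and Tfec. The mean of 2.17 ± 0.923 TPM (SD, n = 3) was at the 7.7 percentile. Its paralog Bhlhe41, which acts with it in the self-renewal of tissue macrophages, had 3.80 ± 1.29 TPM. The pair was not apart, since Bhlhe40 was at 0.304 and 0.482 of the Bhlhe41 level in replicates 1 and 3 and at 1.14 of it in replicate 2. Bhlhe40-201 held 96.2 to 100.0% of the gene's TPM, and the second quantification gave 31.5% to Bhlhe40-202 in replicate 1, from 3 counts.

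**Figure D3:**
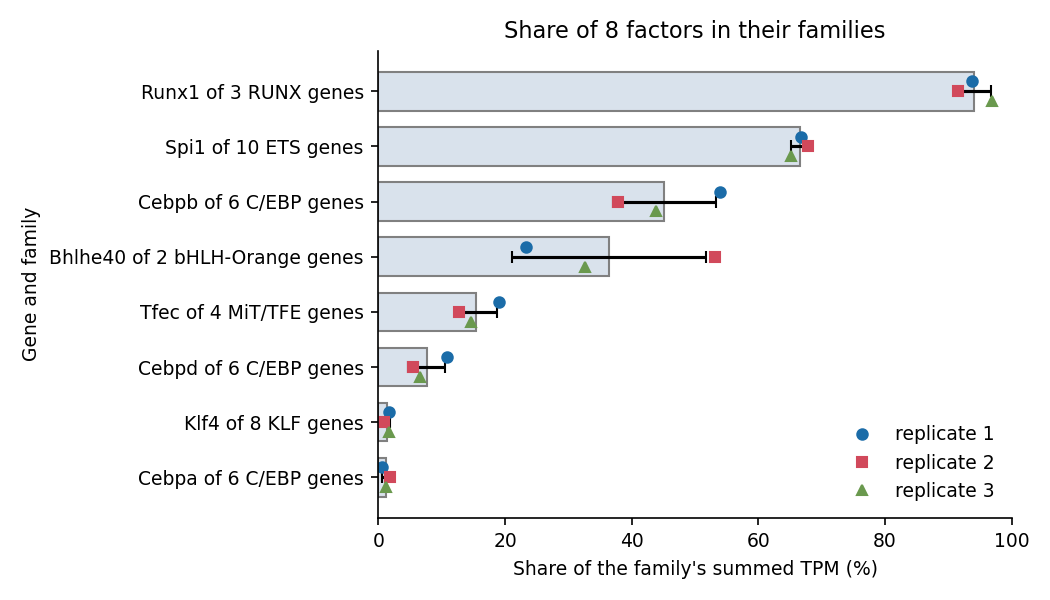
Share (%) of 8 factors in the summed TPM of the listed genes of their families, as mean ± SD (bars, n = 3) with replicates 1, 2 and 3 as points. Runx1 and Spi1 hold 94.0 and 66.6% of their families, and Klf4 and Cebpa hold 1.38 and 1.22%.

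Across the families, 24 of 33 relatives were detected, with a median of mean levels of 10.1 TPM, beside 14.8 TPM for the 9 factors. The counts of detected genes here stand beside 9930 of all 20476 genes with counts. Of 39 pairs of a factor and a relative or partner, some of them with undetected relatives, 32 were apart, again without a share over all genes. All 9 other regulators of macrophages on the list were detected, with Id2 at 263 ± 25.8 TPM, Irf8 at 155 ± 17.7 TPM and Zeb2 at 142 ± 18.6 TPM the highest. Of 21 regulators of other lineages, 4 were detected: Batf3, Nfatc1, Tal1 and Gfi1, at 7.59 ± 0.813, 6.00 ± 1.07, 4.65 ± 1.25 and 3.47 ± 2.58 TPM. Hoxa9 and Klf1, the progenitor and erythroid factors, had no counts in any library, which allows up to 0.139 and 0.136 TPM. Among 12 myeloid genes known as targets of PU.1 or C/EBP factors, 11 were detected, with Lyz2, Cd68, Tyrobp and Adgre1 the highest. The 2 lowest were Csf2ra at 63.8 ± 8.27 TPM and the granule gene Mpo, which was listed at 0 in replicates 1 and 3 and at 0.560 TPM in replicate 2.

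The spread between libraries was tested on rounded expected counts, scaled between libraries by TMM, with a per-gene chi-square test (2 degrees of freedom, Benjamini-Hochberg adjusted over the 12414 genes whose mean count was 10 or more). It asks whether libraries differ by more than counting error. Of the 9 factors, 8 passed an adjusted p of 0.05, and so did 70.9% of all genes tested, so that passing does not set the factors apart. The largest statistics were those of Maf at 4150, Cebpb at 1260 and Cebpd at 1080, the last with a chi-square adjusted p of 4.0e-233. Spi1, with 507, 378 and 402 TMM-scaled CPM in replicates 1, 2 and 3, also passed (chi-square 649, adjusted p = 3.83e-140). Cebpa did not pass (chi-square 4.39, adjusted p = 0.141), on 105 counts a library on average. Calls on Runx1 and Klf4 rested on replicate 2, and the call on Bhlhe40 on replicate 1: without that library the chi-square adjusted p was 0.835, 0.0554 and 0.339.

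How far replicates lie apart beyond counting error was estimated by edgeR's biological coefficient of variation. In this estimate each gene's value is drawn towards that of genes of like count, the more so the fewer the libraries. It was 42.5% for Cebpd, 34.7% for Cebpb, 32.5% for Bhlhe40 and 30.5% for Klf4. Maf, Runx1, Cebpa and Tfec lay between 26.2 and 23.6%, and Spi1 was lowest at 18.1%. The median of the factors was 26.2%, against 20.5% over all genes tested. Since this measure falls with read number, each factor was also set beside genes of like mean count. All 9 lay above the median of their count range and 7 above its upper quartile, the exceptions being Spi1 and Cebpa. Cebpd and Cebpb stood furthest out, in a range where the median gene had 16.1% and the upper quartile was 18.1%. These values depended on all 3 libraries: with any 1 left out Cebpd was at 21.4 to 25.3% and Cebpb at 18.7 to 22.1%, and DESeq2 gave 69.9% for Cebpd. Without replicate 2, Runx1 was at 12.8% and Klf4 at 14.2%, both below Spi1 at 16.5%. Without replicate 3, Spi1 was at 22.3%, above Cebpb, Cebpd, Runx1 and Tfec, and Cebpa was highest of the 9 at 35.0%. With 2 libraries these estimates do not rank the factors by how far the libraries lay apart. In replicates 1 and 2, TMM-scaled CPM was 507 and 378 for Spi1, 61 and 13.8 for Cebpd, and 108 and 33.8 for Cebpb. The counts of factors above the median and upper quartile are a description of 9 chosen genes and carry no p.

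**Figure D4:**
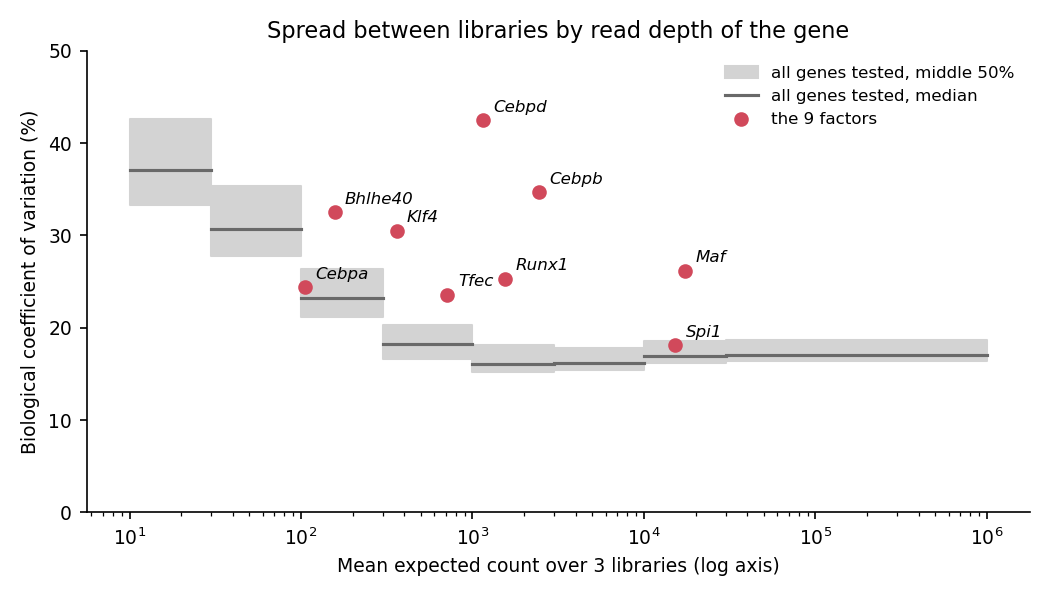
Biological coefficient of variation (%) of each factor against its mean expected count over 3 libraries (log axis), with the median and the middle 50% of all genes tested in ranges of mean count in grey. Spi1 and Cebpa lie inside the grey range, and Cebpd at 42.5% and Cebpb at 34.7% lie furthest above it.

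Of the 9 factors, 6 had the same order of libraries. Maf, Cebpb, Tfec, Cebpd, Runx1 and Klf4 were each lowest in replicate 2, where 31.4% of all detected genes had their lowest TPM. The same 6 were also highest in replicate 1, an order shared by 18.9% of detected genes. The median deviation of the 9 factors from their own mean, in log2(TPM + 0.1), was 0.44, -0.47 and 0.12 in replicates 1, 2 and 3, beside -0.04, 0.05 and -0.02 over all detected genes. With TPM rescaled by TMM factors Spi1 joined the 6, for 7 of 9, while the share of all detected genes with their lowest value in replicate 2 was 44.5% and the share with the full order 26.7%. In the second quantification 6 factors were lowest in replicate 2, beside 15.8% of all detected genes, and 4 had the full order, beside 8.18%. The transcript Klf10-204 took 9.17% of TPM in replicate 1 there. With it left out, 6 factors were lowest in replicate 2 and 6 had the full order, beside 19.6% and 12.2% of all detected genes.

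The low library of these 6 factors is the one with the highest summed TPM of the neutrophil, osteoclast and monocyte markers. The osteoclast sum was mostly Acp5 and Atp6v0d2, and the neutrophil marker Lcn2 was lowest in that library. In bulk RNA, fewer cells of a type and less RNA per cell cannot be told apart. Summed macrophage markers were 31308, 26105 and 27003 TPM in replicates 1, 2 and 3, and 5 of the 10 were highest in replicate 1, 3 in replicate 2 and 2 in replicate 3. Of all 9930 detected genes, 3034, 4597 and 2299 were highest in replicates 1, 2 and 3. The part of the other cell types in the order of the 6 factors was not tested.

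**Figure D5:**
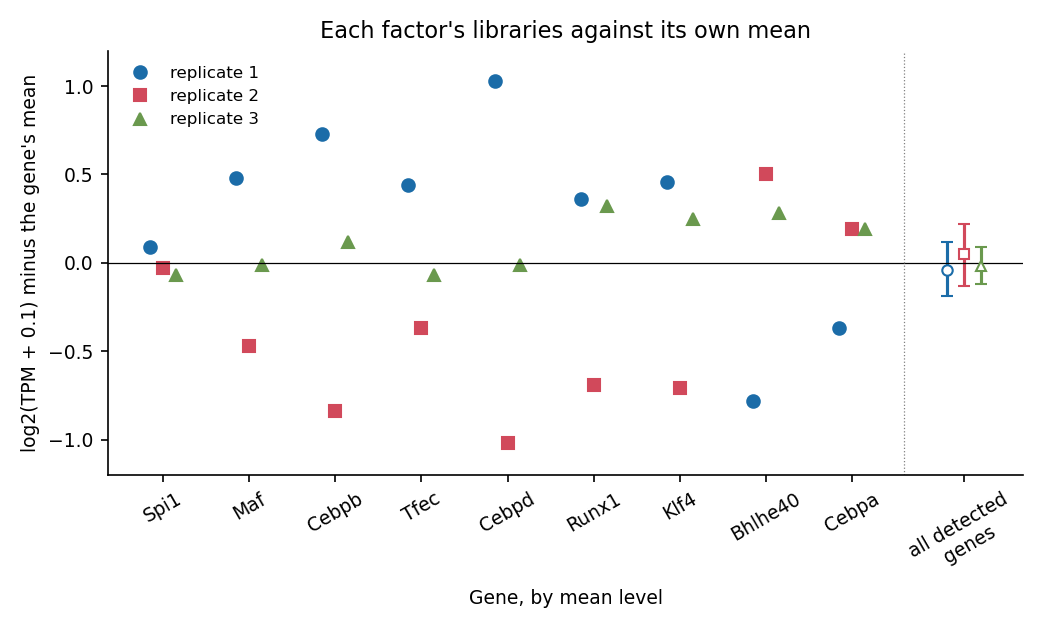
Deviation of replicates 1, 2 and 3 from the mean of each factor, in log2(TPM + 0.1), with the median and middle 50% of all detected genes at the right. In Maf, Cebpb, Tfec, Cebpd, Runx1 and Klf4 replicate 1 is highest and replicate 2 lowest, and Bhlhe40 and Cebpa have replicate 1 lowest.

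Some of the factors share sequence with genes on the other strand, and whether reads were counted by strand is not given in the sources used here. Exons of Cebpb overlap 312 bases of Tmem189, which had 82.1, 71.1 and 90.8 TPM, and 18.1% of the 50-base words of Cebpb also occur in another gene. Exons of Maf overlap 440 bases of Gm15655, at 72.9, 69.4 and 103 TPM, and those of Cebpd 562 bases of Spidr, at 3.73, 4.25 and 4.10 TPM. Between their highest and lowest library, Tmem189 differed 1.28-fold where Cebpb differed 2.98-fold, Spidr 1.14-fold where Cebpd differed 4.19-fold, and Gm15655 1.49-fold where Maf differed 1.93-fold. Bhlhe40, Cebpa and Runx1 overlap genes of 0.190 TPM or less, over 118, 51 and 106 bases. Spi1 and Tfec share no 50-base word with any other gene, and Klf4 shares 0.260% of its words.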

How the data were processed

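Each library came with a gene table, a transcript table and a separate transcript quantification. The readme files deposited with the samples name mm10 and GENCODE M21 as assembly and annotation. Which programs were used, and whether counting used strand, is not given in the sources used here. The gene tables hold, per the file headers, expected counts, which are estimated by a model and not scaled between libraries, and the deposited TPM and FPKM, both relative to effective length and library size. The percent values that were deposited are each transcript's share of its gene's TPM. The second quantification holds estimated counts and TPM per transcript, per the file headers, and was summed per gene. Left out were 26345 entries that are not genes.

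The members and all gene lists were chosen with earlier results of these data known. All 3 libraries form 1 group, so there is no contrast between groups. Every member is named. Relatives and regulators could be named where detected or among the 3 lowest of their list, and targets where among the 4 highest or 2 lowest. Markers could be named where over 5-fold apart between libraries or among the 3 highest, and transcripts with a mean share of at least 10% in either quantification. Not every gene open to naming is named, and some undetected relatives are named beside their factor. An unnamed gene may therefore have been detected. A gene that meets this rule is not reported here. Expected counts were rounded to whole numbers and compared gene by gene with a chi-square test after TMM scaling, Benjamini-Hochberg adjusted. edgeR gave the dispersions in a fit with 1 mean per gene, each drawn towards those of genes of like count. The chi-square test and the dispersion were tested on simulated data. A pseudocount of 0.1 TPM was used for log2 values. Alternatives covered scaling (DESeq2 size factors, library totals), count and TPM minimums, the pseudocount, the quantification and leaving out each library. Promoter windows were cut where they met an annotated exon. Statistics ran in R 4.3.3 with edgeR 4.0.16 and DESeq2 1.42.0. Tables, intervals and figures were made with pandas 2.3.3, scipy 1.17.1, numpy 2.4.6 and matplotlib 3.10.9 under Python 3.11.15.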

Additional observations from a re-analysis of the deposited data

Results flagged for a closer look

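In the second quantification, Klf10-204, a 326-base transcript of a KLF relative of Klf4, had 308035 estimated counts in replicate 1, 4384 in replicate 2 and 4022 in replicate 3. It was given 0 counts in all 3 libraries by the alignment-based table, where Klf10 had 2.71, 5.14 and 5.12 TPM. It held 9.17% of all TPM of the second quantification in replicate 1, which lowers every other TPM value of that library there. Levels of the second quantification were therefore also computed without it.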

How the results depend on the processing

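No result past its threshold changed direction. Between pairs not called apart, Cebpd over Runx1 (log2 difference -0.13) was at 0.03 without replicate 2 or replicate 3, and Bhlhe40 over Cebpa (0.09) at -0.07 without replicate 2. All 9 factors had at least 1 TPM in every library in the second quantification, after TMM rescaling and with any library left out, and 7 had at least 1 FPKM. The count of genes that varied between libraries, 8799 in all, was 5299 to 7459 with 1 library left out, lowest without replicate 2, and with it 6 to 8 of the 9 factors. The factors' median biological coefficient of variation, 26.2%, was 18.7 to 22.3% with 1 library left out and 25.5% with DESeq2. Pairs of factors called apart numbered 27 to 32 of 36 with 1 library left out, 28 with a pseudocount of 1 and 29 in the second quantification. Without replicate 1, Runx1 lay above Cebpd (log2 difference of Cebpd over Runx1 -0.47), without replicate 2 Klf4 lay above Bhlhe40 (1.91), and without replicate 3 Maf was no longer apart from Cebpb (0.81). The causes were not tested. Of the listed relatives, regulators and targets, 48 were detected, and 37 at 5 TPM. Among detected genes of at least 5 TPM, 32.1% were lowest in replicate 2. These alternatives on the order of libraries were chosen after seeing the data. No paired analysis was possible because the series holds 1 group. Bhlhe40 and Cebpa, with 56 to 223 counts a library, are limited most by depth.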
